A study of Homo sapiens with 6 samples.

Results

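The HOX cluster non-coding RNAs are 10 genes that lie among the coding HOX genes: HOTAIR, HOTAIRM1, HOTTIP, HAGLR, HOXA-AS2, HOXA-AS3, HOXA11-AS, HOXB-AS1, HOXB-AS3 and HOXC-AS1. They were chosen by gene name, with no measured value in the rule, and all 10 were found among the 35036 genes of the count table. Poly(A)-selected RNA was counted in U-2OS cells, a human osteosarcoma line, with 3 libraries given a control siRNA (SiCtrl) and 3 given an siRNA against SFPQ (SiSFPQ), an RNA- and DNA-binding protein of paraspeckles. Actinomycin D, which blocks transcription, had been given to the cells of all 6 libraries, at a dose and for a time not given in the sources used here, and no untreated cells were measured. The SFPQ transcript was not analysed here, and the groups therefore rest on their labels. Nothing in the labels says that the libraries were separate cultures, so the p-values measure the spread between these libraries, which may be technical.

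HOX genes encode homeodomain transcription factors that set position along the body axis, and they sit in clusters in the order in which they act. Between and opposite them lie long non-coding RNAs, several of which have been tied to the chromatin of the clusters. HOTAIR, from the HOXC cluster, is known for its link to the Polycomb repressive complex PRC2 and is often abundant in tumours. HOTAIRM1, from the HOXA cluster, was first described in myeloid cells, and HOTTIP lies at a tip of the same cluster and is known for recruiting the WDR5-MLL complex.

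The members went both ways after SFPQ siRNA. HOXB-AS1, HOTAIR and HOXB-AS3 fell and HOTAIRM1 and HOXC-AS1 rose, while HOXA-AS2, HOXA-AS3, HOXA11-AS and HAGLR did not pass the test and HOTTIP had too few counts to be tested. HOXB-AS1 changed most, to about the level of HOXB-AS3 per kilobase of listed length, though its counts stayed higher in every library. Levels are in CPM, a gene's counts scaled by its library's total in this table with TMM factors, and a gene is called where the edgeR quasi-likelihood test over all genes gives a Benjamini-Hochberg adjusted p under 0.05. Of the 9 members tested, 5 were called, against 48.4% of the 6325 genes tested in the whole table, so the share of members called was near the background under this filter on low counts. With no filter, 4 of 10 members and 13.7% of 21006 genes were called. The tested members had a median of 53.0 CPM, against 28.6 CPM for all tested genes, and shares at like levels were not compared. By direction, 2 were higher and 3 lower, where 24.5% and 24.0% of all tested genes were. The median log2 fold change of the 9 was -0.0051, beside 0.0079 over all tested genes, and their range was -0.93 to 0.63. The groups did not overlap for 6 of the 9 members and for 54.0% of all tested genes. In RNA from a whole culture, fewer cells that express a gene and less of its RNA per cell cannot be told apart. With actinomycin D in all 6 libraries and no untreated cells, the level before the block and decay during it cannot be told apart either.

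**Figure D1:**
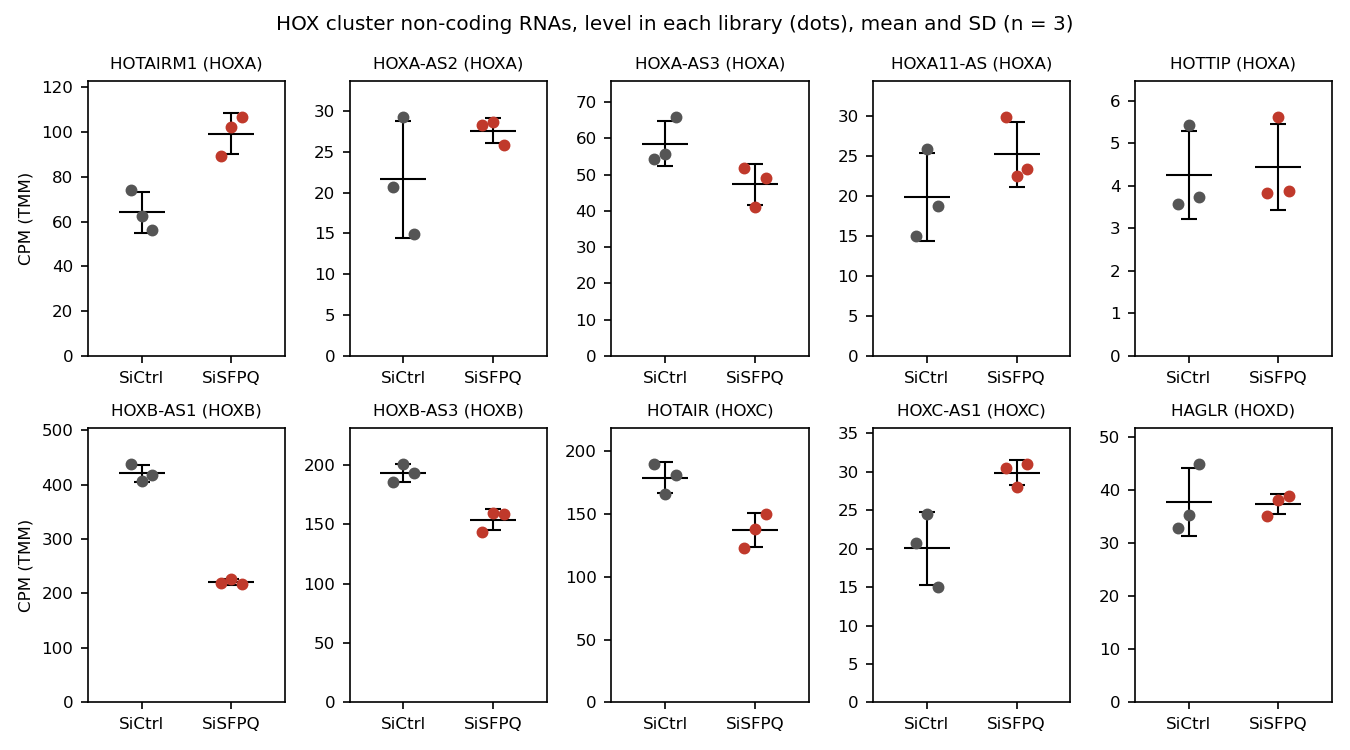
Level of each member in CPM (vertical axes, each from 0) in the 3 SiCtrl and 3 SiSFPQ libraries; dots are libraries, and the bar and whiskers are the mean and SD. All SiSFPQ libraries lie below all SiCtrl libraries for HOXB-AS1, HOXB-AS3, HOTAIR and HOXA-AS3 and above them for HOTAIRM1 and HOXC-AS1, and the groups overlap for the remaining 4 members.

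The table held 1298658 to 1599566 counts per library, and the 10 members together held 987 to 1490 of these. Their share of the table was 0.0971% to 0.0993% in SiCtrl and 0.0760% to 0.0805% in SiSFPQ, so the groups did not overlap (exact permutation test, two-sided, p = 0.1, the smallest that 3 against 3 allows). The counting did not separate strands or overlapping genes: MALAT1 and its antisense partner TALAM1, on opposite strands, held 72563 and 72552 counts. A member's counts can therefore hold reads of any gene over the same bases. In the exons of GENCODE release 29, HOTAIR and HOXC-AS1 shared no base with a coding exon, and HOTTIP shared 86 of 5086 and HAGLR 292 of 5110. The shared part was 628 of 5281 bases for HOXA-AS2, 717 of 3128 for HOXA11-AS, 461 of 1559 for HOXB-AS1, 575 of 1913 for HOXB-AS3 and 2331 of 5967 for HOXA-AS3. The lengths the table lists differ from these for most members (4371 bases for HOXB-AS1 and 4118 for HOTAIR, where that release has 2602), so the counted exons may overlap more. The part of coding HOX reads in the results was not tested.

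HOTAIR (ENSG00000228630, chromosome 12, 53962308 to 53975055, minus strand) fell. It had 266, 244 and 242 counts in SiCtrl 1, 2 and 3 and 161, 222 and 232 in SiSFPQ 1, 2 and 3, or 190, 166 and 181 CPM against 123, 138 and 150 CPM. Every SiSFPQ library was below every SiCtrl library, with SiSFPQ 1 the lowest. The mean was 179 ± 12.2 CPM in SiCtrl and 137 ± 13.6 CPM in SiSFPQ (SD, n = 3 each). The log2 fold change was -0.38 ± 0.09 (SE; edgeR, adjusted p = 0.00012), a difference larger than the spread between libraries. HOTAIR lies on the strand opposite to the HOXC genes, between HOXC11 and HOXC12. Row ENSG00000293681 spans all 12748 bases of HOTAIR on the same strand, and 4041 bases of HOXC-AS3, which rose, and row ENSG00000293680 spans 4010 bases of HOTAIR. These rows had log2 fold changes of -0.19 (edgeR, adjusted p = 0.17) and -0.21 (adjusted p = 0.36) and may share its reads.

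HOXC-AS1 (ENSG00000250451, chromosome 12, 53999016 to 54000011, minus strand), the other HOXC member, rose. Its counts were 29, 36 and 20 in SiCtrl and 40, 45 and 48 in SiSFPQ, and its level 20.7, 24.5 and 14.96 CPM against 30.5, 28.0 and 31.0 CPM. All SiSFPQ libraries were above all SiCtrl libraries, and SiCtrl 3 was the lowest. The mean was 20.04 ± 4.78 CPM in SiCtrl and 29.9 ± 1.61 CPM in SiSFPQ (SD, n = 3 each). The log2 fold change was 0.56 ± 0.21 (SE; edgeR, adjusted p = 0.017). Of the 5 calls this was the one that alternatives ended: it was lost without SiCtrl replicate 3 (log2 fold change 0.38, adjusted p = 0.16), without SiSFPQ replicate 3 (adjusted p = 0.055), with no low-count filter (adjusted p = 0.059) and in DESeq2 (adjusted p = 0.20), over a range of 0.0073 to 0.20 in all alternatives.

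HOTAIRM1 (ENSG00000233429, chromosome 7, 27095647 to 27099966, plus strand) rose. Counts of 104, 92 and 75 in SiCtrl stood against 117, 164 and 165 in SiSFPQ, which is 74.2, 62.5 and 56.1 CPM against 89.3, 102 and 107 CPM. The groups did not overlap. The mean went from 64.3 ± 9.18 to 99.4 ± 8.99 CPM (SD, n = 3 each), and the log2 fold change was 0.63 ± 0.12 (SE; edgeR, adjusted p = 5.4e-07). ENSG00000293629, a row on the same strand whose span overlaps HOTAIRM1 by 3888 bases, also rose (log2 fold change 0.79, edgeR, adjusted p = 2.4e-05), with 25 to 48 counts in SiCtrl and 60 to 88 in SiSFPQ. Reads of this pair may be shared, so they are not independent observations.

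The 3 other tested HOXA members are named as antisense RNAs, and none was called. HOXA-AS3 (ENSG00000254369, chromosome 7, 27129977 to 27152697), opposite HOXA3 to HOXA7, had 54.2, 55.7 and 65.8 CPM in SiCtrl and 51.9, 41.1 and 49.1 CPM in SiSFPQ. The groups did not overlap, but the log2 fold change, -0.31 (95% interval -0.59 to -0.03; edgeR, adjusted p = 0.060), missed the threshold. It passed without SiCtrl replicate 1 (adjusted p = 0.045) or SiSFPQ replicate 1 (adjusted p = 0.046), over a range of 0.045 to 0.33. HOXA-AS2 (ENSG00000253552, chromosome 7, 27107777 to 27134302), opposite exons of HOXA3 and HOXA4, had 20.7, 29.2 and 14.96 CPM in SiCtrl and 28.3, 28.7 and 25.9 CPM in SiSFPQ. SiCtrl 2 was above every SiSFPQ library, and without it the log2 fold change went from 0.34 (95% interval -0.07 to 0.74; edgeR, adjusted p = 0.18) to 0.61 (adjusted p = 0.037, in a range of 0.037 to 0.69 over all alternatives). HOXA11-AS (ENSG00000240990, chromosome 7, 27184507 to 27188797), antisense to HOXA11, had 14.99, 25.8 and 18.7 CPM in SiCtrl and 29.8, 22.4 and 23.3 CPM in SiSFPQ. These overlapped, and the log2 fold change was 0.32 (95% interval -0.11 to 0.75; edgeR, adjusted p = 0.22). For none of the 3 do the intervals show that the level was the same in both groups.

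HOXB-AS1 (ENSG00000230148, chromosome 17, 48543002 to 48554788, plus strand), antisense to HOXB2 and HOXB3, was the most abundant member and fell furthest. It had 614, 599 and 557 counts in SiCtrl and 286, 365 and 336 in SiSFPQ. In CPM these were 438, 407 and 417 against 218, 227 and 217, with no overlap and a small spread in both groups. The mean fell from 421 ± 15.9 to 221 ± 5.55 CPM (SD, n = 3 each), a log2 fold change of -0.93 ± 0.07 (SE; edgeR, adjusted p = 7.1e-38). HOXB-AS3 (ENSG00000233101, chromosome 17, 48549630 to 48606395, plus strand), on the same strand and opposite HOXB3, HOXB5 and HOXB6, fell less. Its counts were 260, 296 and 259 in SiCtrl and 188, 256 and 246 in SiSFPQ, or 186, 201 and 194 CPM against 144, 159 and 159 CPM. The groups did not overlap, and the log2 fold change was -0.33 ± 0.09 (SE; edgeR, adjusted p = 0.00060). Transcripts of both genes hold the same 58 exonic bases (chromosome 17, 48549889 to 48549946), so some of their reads may be counted for both.

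HOXB-AS1 and HOTTIP stand at the opposite ends of the members' levels, and their promoters differ in CpG content, so both are shown, a choice made after the values were seen. The windows are the 300 bases from 250 before to 50 after the RefSeq start on GRCh38.p14, with every CpG in capitals. They lie on the plus strand at chr17:48544101-48544400 for HOXB-AS1 and chr7:27200171-27200470 for HOTTIP. The counted rows begin upstream of them, at 48543002 and 27198575, so the windows may not be at the start of the transcripts counted.
HOXB-AS1: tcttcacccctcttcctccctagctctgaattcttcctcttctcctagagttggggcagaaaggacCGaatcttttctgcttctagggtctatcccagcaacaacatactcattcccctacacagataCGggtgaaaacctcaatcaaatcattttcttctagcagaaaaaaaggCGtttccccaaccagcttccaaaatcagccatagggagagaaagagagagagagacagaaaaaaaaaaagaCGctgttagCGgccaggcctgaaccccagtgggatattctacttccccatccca
HOTTIP: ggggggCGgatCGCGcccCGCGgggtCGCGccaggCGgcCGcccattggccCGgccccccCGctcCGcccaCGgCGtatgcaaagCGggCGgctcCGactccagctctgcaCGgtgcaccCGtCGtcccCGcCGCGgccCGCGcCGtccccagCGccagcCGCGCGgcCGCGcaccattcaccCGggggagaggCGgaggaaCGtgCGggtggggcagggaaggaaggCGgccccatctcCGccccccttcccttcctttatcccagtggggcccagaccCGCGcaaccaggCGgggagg
The HOXB-AS1 window holds 5 CpGs and 46.7% G and C, and the HOTTIP window 41 CpGs and 78.0% G and C, where the median of 35116 promoters of this length is 14 CpGs. Of the members, 7 had 10 promoter entries in the table, with 2 CpGs (HOXA-AS3) to 45 (HAGLR). The letters TATAAA, searched on both strands, were in none of these 10 and in 11.5% of all promoters. CCAAT, also on both strands, was in the HOTTIP window, not in the HOXB-AS1 window, and in 34.6% of all. These matches describe the letters and show no bound factor.

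HOTTIP (ENSG00000243766, chromosome 7, 27198575 to 27207259) had 5, 8 and 5 counts in SiCtrl and 5, 9 and 6 in SiSFPQ. The groups overlapped. With 18 and 20 counts in all, the ratio of SiSFPQ to SiCtrl was 1.10 with a 95% counting interval of 0.55 to 2.20, so a change of less than about that size was not detectable at this depth. The interval covers counting error only. HAGLR (ENSG00000224189, chromosome 2, 176164051 to 176189421, minus strand), the HOXD member, lies opposite HOXD1 and HOXD3. Its level was 32.8, 35.3 and 44.9 CPM in SiCtrl and 35.1, 38.0 and 38.8 CPM in SiSFPQ, and the SiSFPQ libraries all lay inside the SiCtrl range. The 95% interval of its log2 fold change, -0.0051, ran from -0.34 to 0.33 (edgeR, adjusted p = 0.98), and its sign turned with the scaling and with single libraries left out.

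Per kilobase of listed exonic length, the order of the members was not the same in the groups. In SiCtrl HOXB-AS1 was first with 96.2 CPM per kilobase, then HOXB-AS3 with 62.6, HOTAIR with 43.4 and HOTAIRM1 with 43.0. HOTAIR and HOTAIRM1 overlapped in their libraries, and HOXB-AS1 and HOXB-AS3 did not. In SiSFPQ HOTAIRM1 was first with 66.4 CPM per kilobase, ahead of HOXB-AS1 with 50.6, HOXB-AS3 with 49.8, HOXC-AS1 with 44.8 and HOTAIR with 33.3. HOXB-AS1 and HOXB-AS3 overlapped there, as did HOXB-AS3 and HOXC-AS1, while HOTAIRM1 lay above all of them. HOXA-AS3, HOXA11-AS, HAGLR and HOXA-AS2 were at 3.98 to 9.54 CPM per kilobase in SiCtrl and 5.08 to 8.04 in SiSFPQ, and HOTTIP was last in both, with 0.674 and 0.704. Of the counts of all 10 members, HOXB-AS1 took 41.3 ± 1.07% in SiCtrl and 28.2 ± 1.09% in SiSFPQ and HOTAIRM1 6.30 ± 0.818% and 12.7 ± 0.730%, while HOTAIR took 17.5 ± 1.03% and 17.5 ± 1.16% (SD, n = 3 each).

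Ratios of counts within a library do not depend on how libraries are scaled. For each count of HOTAIR there were 0.391, 0.377 and 0.310 counts of HOTAIRM1 in SiCtrl and 0.727, 0.739 and 0.711 in SiSFPQ. The ratio was thus 2.02 times as high in SiSFPQ, and the SiSFPQ libraries spread less than the SiCtrl ones. HOXC-AS1 per HOTAIR, within the HOXC cluster, went from 0.113 ± 0.033 to 0.219 ± 0.025 (SD, n = 3 each), and HOXC-AS3 per HOTAIR from 0.124 ± 0.025 to 0.287 ± 0.014. HOXB-AS1 per HOXB-AS3 went from 2.18 ± 0.171 to 1.44 ± 0.078. HOTAIRM1 per HOXA-AS3 went from 1.11 ± 0.258 to 2.13 ± 0.384 and HOTAIRM1 per HOXA10-AS from 0.549 ± 0.061 to 1.55 ± 0.259. Reads of HOXA9 and HOXA10 may be among the HOXA10-AS counts, as given below. LINC03057, a HOXB-cluster RNA on the strand of the HOXB genes, went from 0.089 ± 0.009 to 0.327 ± 0.053 per count of HOXB-AS1. The groups did not overlap for any of these 7 ratios, which were picked after the values were seen; each gave p = 0.1 in the two-sided exact permutation test, the smallest it can give, and 0.1 after adjustment over the 7.

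**Figure D2:**
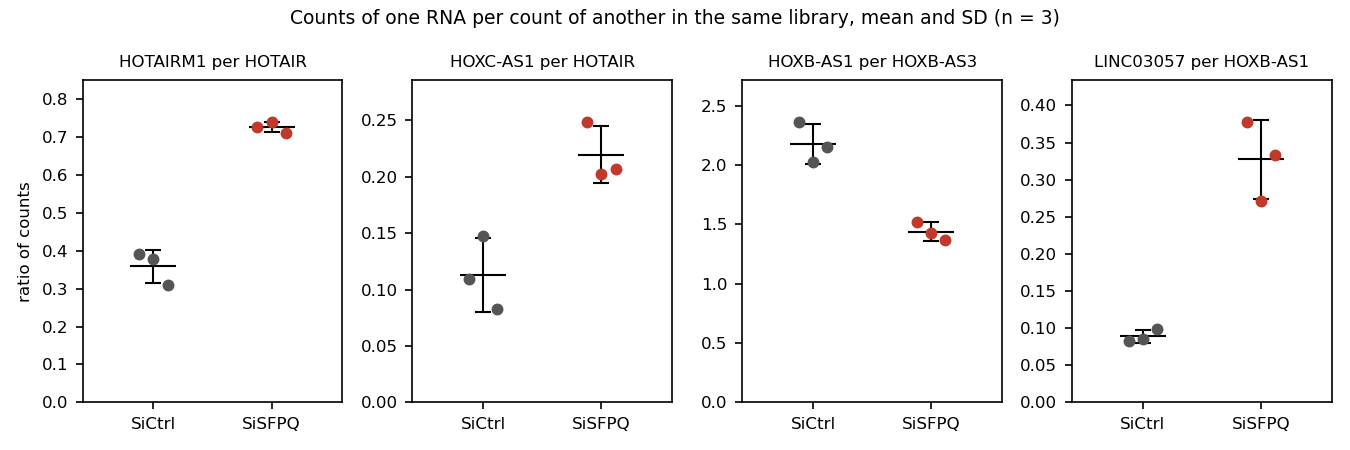
Counts of one RNA for each count of another in the same library (vertical axes, ratio of raw counts, each from 0), for SiCtrl and SiSFPQ; dots are libraries, and the bar and whiskers are the mean and SD (n = 3). HOTAIRM1 per HOTAIR is 0.310 to 0.391 in SiCtrl and 0.711 to 0.739 in SiSFPQ, and the groups are also apart for the other 3 ratios drawn.

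The members' neighbours were the 52 other rows of the table within 50 kb of the coding HOX genes of the 4 clusters, of which 20 had enough counts to be tested. Of these, 4 rose, 4 fell and 12 were not called, which is 40.0% called, with a median log2 fold change of -0.04. In the HOXA cluster HOXA10-AS (ENSG00000253187, chromosome 7, 27166151 to 27171373), opposite HOXA9 and HOXA10, fell. Its mean was 117 ± 5.40 CPM in SiCtrl and 66.1 ± 17.3 CPM in SiSFPQ (SD, n = 3 each), and edgeR gave a log2 fold change of -0.81 with an adjusted p of 9.4e-12. It had 168, 177 and 148 counts in SiCtrl and 68, 98 and 132 in SiSFPQ, groups that did not overlap but with a wide spread in SiSFPQ. ENSG00000293630, on the same strand over part of HOXA10-AS, fell by 0.64 on the log2 scale and may share its reads. Within the HOXA cluster HOTAIRM1 thus rose and HOXA10-AS fell, while HOXA-AS2, HOXA-AS3 and HOXA11-AS were not called.

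In the HOXC cluster HOXC-AS3 (ENSG00000251151, chromosome 12, 53981509 to 53986339), near HOXC10, rose. It stood at 22.3 ± 5.06 CPM in SiCtrl and 39.3 ± 2.29 CPM in SiSFPQ (SD, n = 3 each), with a log2 fold change of 0.83 in edgeR and an adjusted p of 6.3e-05. It lies next to HOTAIR on the same strand and moved the other way. ENSG00000273046, which shares 1386 of its 1389 GENCODE 29 exon bases with coding exons, HOXC4 and HOXC5 among them, on its own strand, rose by 0.87 on the log2 scale, and its counts cannot be told from theirs. ENSG00000260597, inside the span of that row on the same strand and free of coding exons, fell by 0.50 on the log2 scale, from 97.1 ± 6.43 to 68.7 ± 10.9 CPM (SD, n = 3). In the HOXB cluster LINC03057 (ENSG00000272763, chromosome 17, 48634804 to 48647050) rose. Its level was 37.4 ± 3.36 CPM in SiCtrl and 72.2 ± 10.4 CPM in SiSFPQ (SD, n = 3 each), and edgeR gave a log2 fold change of 0.94 with an adjusted p of 7.7e-10. It had 51, 51 and 55 counts in SiCtrl and 108, 99 and 112 in SiSFPQ. In the HOXD cluster HOXD-AS2, opposite HOXD3, fell by 0.34 on the log2 scale (edgeR, adjusted p = 0.012). The most abundant neighbours that were not called, besides the 2 rows over HOTAIR, were LINC02086 (-0.08), HOXC-AS2 (0.32) and HOXB-AS4 (0.59, edgeR, adjusted p = 0.051).

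**Figure D3:**
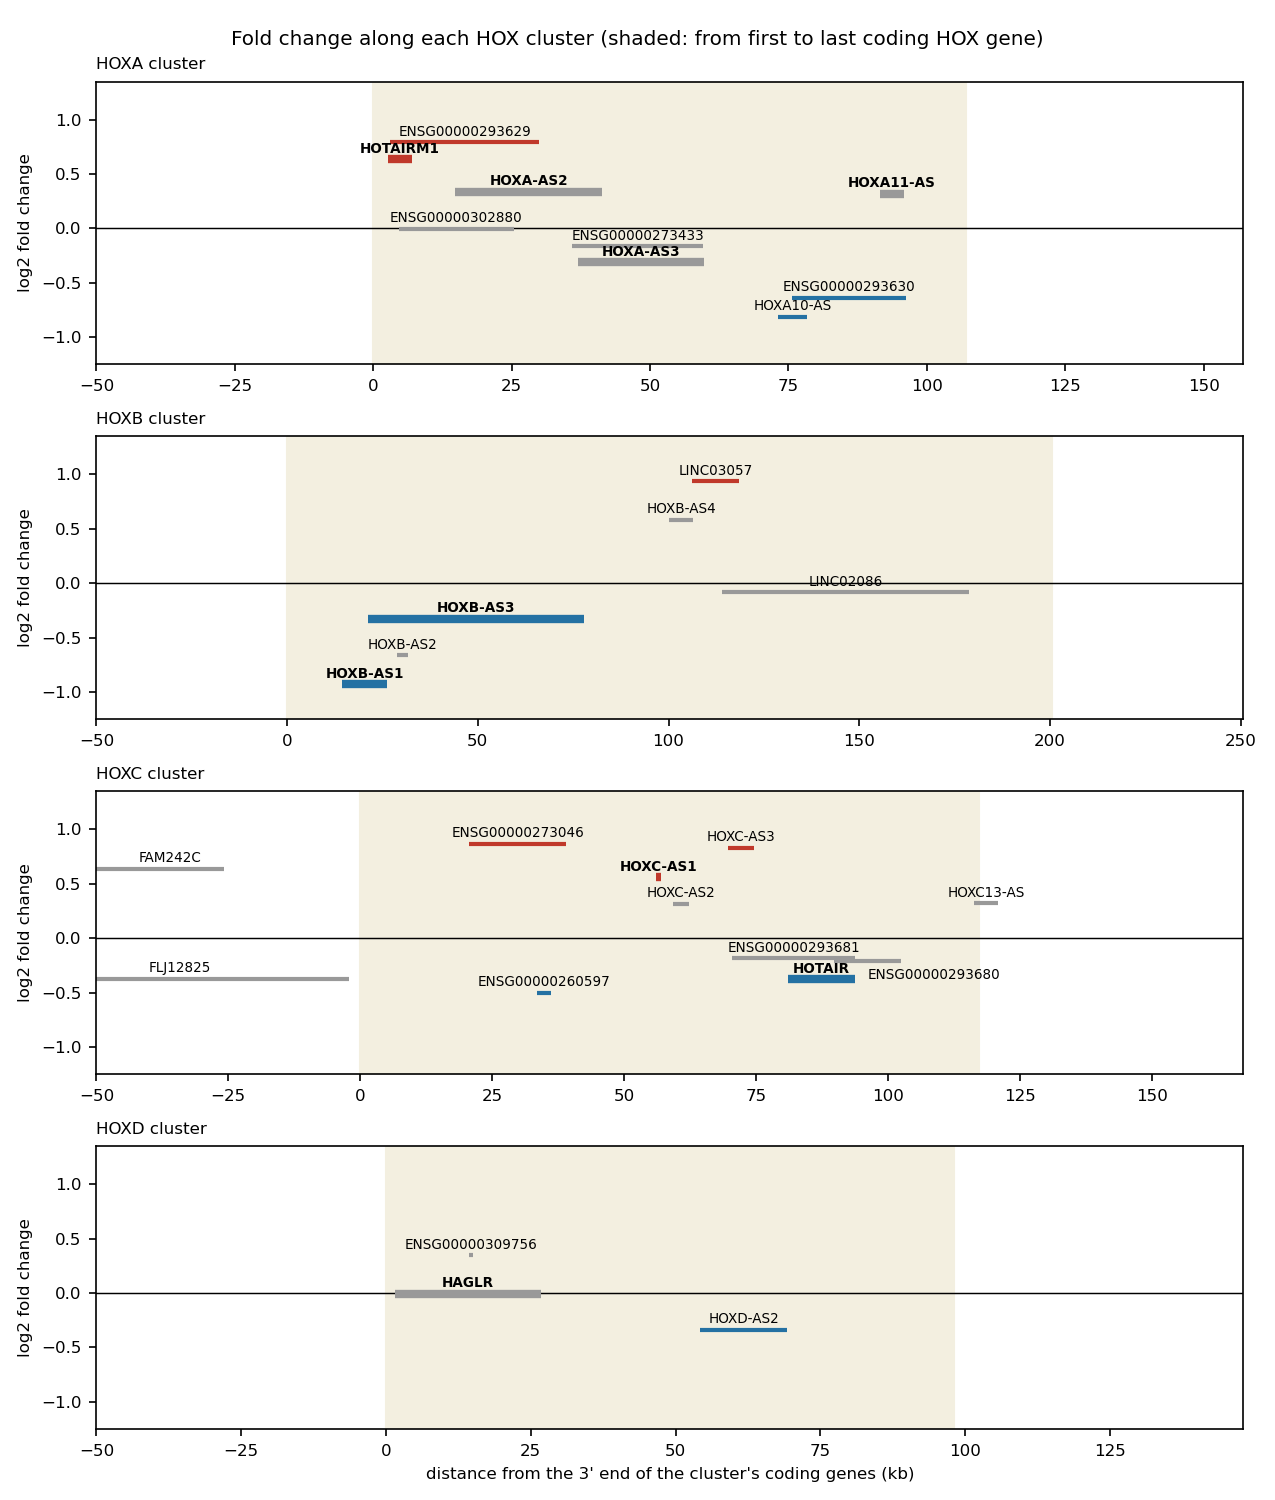
Log2 fold change, SiSFPQ against SiCtrl (vertical axes), of the 29 tested rows along the HOXA, HOXB, HOXC and HOXD clusters, by distance in kb from the 3′ end of the coding genes (horizontal axes); bars span each row, bars that leave the window end at its edge, members are thick with bold names, and red, blue and grey are higher, lower and not called. In the HOXA cluster HOTAIRM1 is high and HOXA10-AS low, and in the HOXC cluster HOTAIR is low while HOXC-AS1 and HOXC-AS3 are high.

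**Figure D4:**
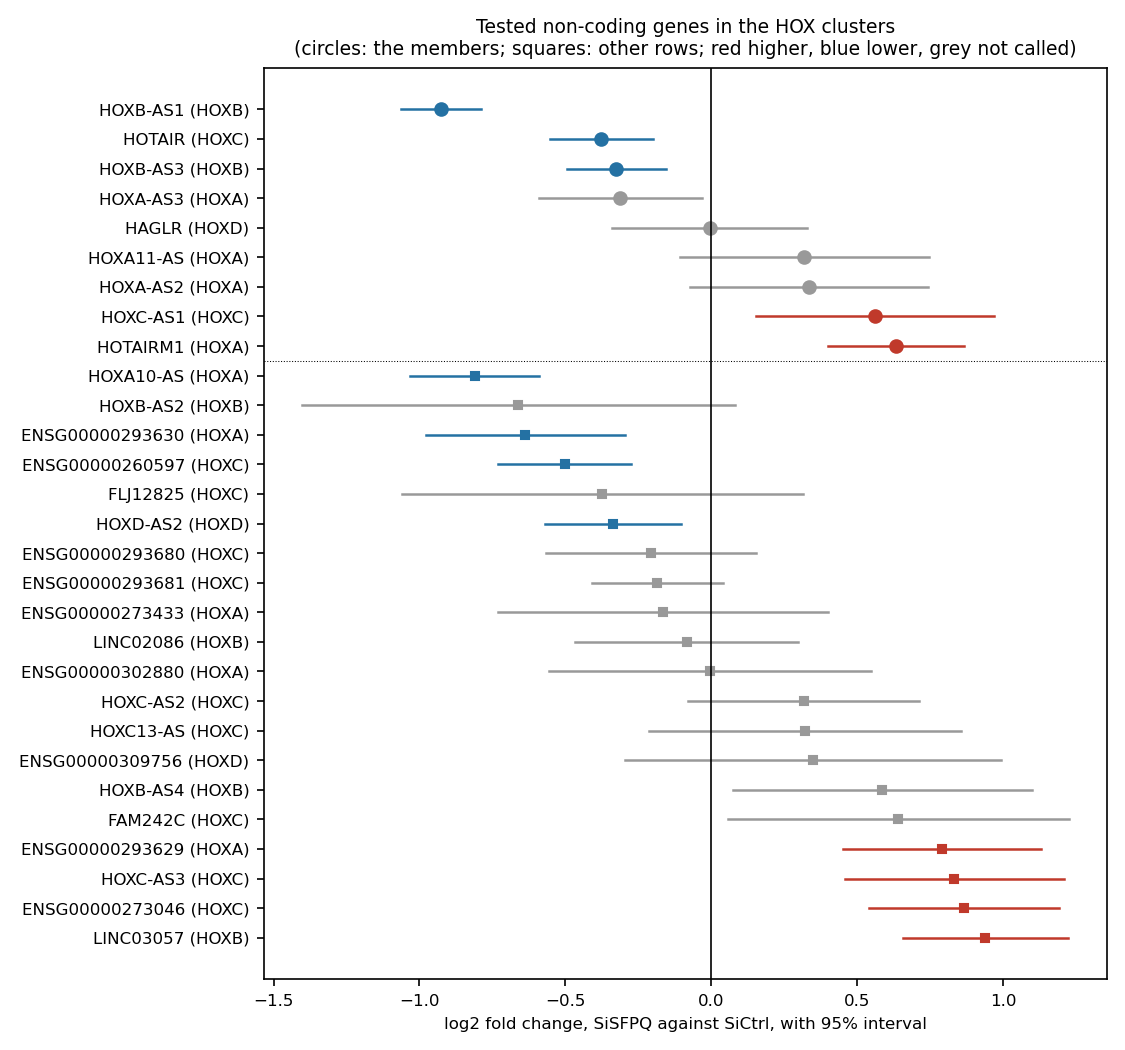
Log2 fold change with its 95% interval (horizontal axis) for the 9 tested members (circles) and the 20 other tested rows of the HOX clusters (squares), with the cluster in brackets; red rows were called higher, blue lower and grey not called. The members run from -0.93 for HOXB-AS1 to 0.63 for HOTAIRM1, and the other rows from -0.81 for HOXA10-AS to 0.94 for LINC03057.

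Non-coding genes at other developmental transcription factor loci were set beside the members, from a list of 50 names of which 41 were in the table and 17 were tested. Of these, 4 rose, 1 fell and 12 were not called, a share of 29.4% called with a median log2 fold change of 0.08. MEIS1-AS3, at the locus of the HOX cofactor MEIS1, rose by 1.57 on the log2 scale (edgeR, adjusted p = 6.2e-09), with a mean of 9.32 CPM in SiCtrl and 27.5 CPM in SiSFPQ. MEIS1-AS2, at the same locus, was not called and pointed the other way (log2 fold change -0.59, edgeR, adjusted p = 0.23). Its mean was 7.08 CPM in SiCtrl and 4.54 CPM in SiSFPQ. FOXD2-AS1 rose by 0.95, LHX1-DT rose by 1.30 and GATA3-AS1 fell by 1.42 on the log2 scale. Whether these shares differ from that of the HOX members was not tested.

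The genes whose log2 CPM followed that of HOTAIR most closely over the 6 libraries were HOXA10-AS (Pearson's r = 0.95), ENSG00000293630 (r = 0.93) and HOXB-AS1 (r = 0.90) among the 28 other tested HOX rows. Among the 6319 other tested genes whose mean reached 5 CPM they were ENSG00000259553 on chromosome 15 (r = 0.997), ENSG00000286999 on chromosome 20 (r = 0.989) and HRG-AS1 on chromosome 3 (r = 0.988). All 6 of these genes were called lower in SiSFPQ. For HOXA10-AS the counts may hold reads of HOXA9 and HOXA10. The values describe 6 libraries in 2 groups, and share the libraries' scaling; how far they come from the difference between the groups was not tested.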

How the data were processed

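The authors deposited 1 table of unnormalized counts, whole reads for each gene, with coordinates and lengths per the file headers. Poly(A) selection and a stranded kit are named per the labels' protocols; the aligner, counting program, annotation and build are not given in the sources used here. Among 13886 gene identifiers shared with GENCODE release 29 (GRCh38), 13886 were on the same chromosome and 13874 overlapped its position, so coordinates are read as GRCh38. Totals of 1298658 to 1599566 counts are those of a table of non-coding genes, not of whole libraries.

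All 6 libraries were fitted together in R 4.3.3 by edgeR 4.0.16 (robust quasi-likelihood after filterByExpr and TMM, group as sole term, two-sided), with p-values adjusted over all 6325 tested genes; the fit was tested on simulated data. Levels per kilobase used the listed length. Alternatives were RLE, upper-quartile and plain scaling, no filter, a minimum of 1 CPM in any 3 libraries, limma-voom (limma 3.58.1), DESeq2 1.42.0, a replicate block, each library left out, and genes without coding exon overlap. Libraries within a group differed by more than sampling noise (chi-square per degree of freedom 1.24 to 1.40), so none was counted as a repeat deposit of the same library; repeat preparations of 1 culture cannot be told apart from separate cultures this way. Named were all members, the called HOX neighbours (at most 15), the 5 most abundant uncalled ones, 4 genes of the developmental list by adjusted p, and those most like HOTAIR. MEIS1-AS2 was named besides, as it lies at the locus of MEIS1-AS3. The members and lists were chosen with earlier results of these data known. Promoters are from RefSeq (GRCh38.p14) and exons from GENCODE 29.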

Additional observations from a re-analysis of the deposited data

How the results depend on the processing

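HOTAIR, HOTAIRM1, HOXB-AS1 and HOXB-AS3 kept direction and call in every alternative that tested them, with log2 fold changes of -0.45 to -0.31, 0.53 to 0.74, -0.97 to -0.86 and -0.36 to -0.26. HOXA11-AS was not called in any. Members called higher, 2 in the fit reported, were 1 with no filter, 1 in DESeq2, 1 among genes without coding exon overlap and 1 to 3 with a library left out; members called lower, 3, were 1 among genes without coding exon overlap, where 2 members were tested, and 3 to 4 with a library left out. Of all genes, 48.4% were called in the fit reported, 13.7% of 21006 with no filter, 28.9% of 11651 with a minimum of 1 CPM in any 3 libraries, and 23.0% of the 7646 that DESeq2 gave an adjusted p, against 5 of 9, 4 of 10, 5 of 10 and 4 of 10 members. Among genes without coding exon overlap 49.8% of 2792 were called, against 2 of 2 members. With a library left out 42.2% to 43.7% of all tested genes were called, against 4 to 6 of 9 members. The members were more abundant at the median than all tested genes, and shares at like levels were not compared. DESeq2 was run with its own filter, so tool and filter changed together. Of the HOX neighbours, 20 were tested in the fit reported. The 7 without coding exon overlap gave 1 higher and 1 lower. In DESeq2 the 21 with an adjusted p gave 4 higher and 2 lower. Over all genes DESeq2, which gave 7646 an adjusted p, called 858 higher and 904 lower. Of the 2792 genes tested without coding exon overlap, 707 were higher and 683 lower. The causes of these differences from the fit reported were not tested. HAGLR, not called, turned positive with plain library totals (0.059) and limma-voom (0.0064) and ran from -0.10 to 0.12 with a library left out. Plain totals moved the median of all genes to 0.072. Deviations of same-numbered libraries correlated at -0.005 to 0.010, so no effect shared by replicate number was seen. This cannot show whether same-numbered libraries were prepared together. With the replicate block 2 members were called higher and 3 lower, no member's call changed, and 1535 genes were higher and 1515 lower. Depth limits HOTTIP most, with under 10 counts per library, and counts under 50 per library limit HOXC-AS1, HOXA-AS2 and HOXA11-AS.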
